A study of Homo sapiens with 8 samples.

Results

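The constitutive proteasome subunits were followed in DU145 cells with exogenous SOX11 and in control DU145 cells. The members were the protein-coding genes of the count table whose symbol is PSMA, PSMB, PSMC or PSMD followed by a number, leaving out the immunoproteasome subunits PSMB8, PSMB9 and PSMB10. This gave 35 of the 32066 genes in the table. There were 15 genes of the core particle, PSMA1 to PSMA8 and PSMB1 to PSMB7, and 20 genes named after the regulatory particle, PSMC1 to PSMC6 and PSMD1 to PSMD14. PSMC3IP begins with the same letters but encodes no proteasome subunit and was set aside.

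DU145 is an established epithelial prostate cancer line that was derived from a brain metastasis. There were 4 libraries of SOX11-expressing cells and 4 of control cells, grown in the same serum-containing medium, and polyadenylated RNA was sequenced. The labels name neither the vector nor whether either population was 1 clone, and nothing says that the libraries of a group came from separate cultures, so the p-values measure the spread between these libraries, which may be technical.

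The proteasome is the protease that degrades proteins tagged with ubiquitin chains. Its barrel-shaped core particle consists of outer alpha rings, which gate the entry pore, and inner beta rings, in which PSMB5, PSMB6 and PSMB7 carry the active sites. The regulatory particle caps the core: its PSMC subunits are ATPases that unfold the substrate and push it inward, and most PSMD subunits bind ubiquitin, remove it or hold the lid together. PSMD5, PSMD9 and PSMD10 are chaperones that help to assemble the cap and leave before it is complete. Transcription of the subunit genes is known to be driven together by NFE2L1, also called NRF1, when proteasome activity is short.

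Total counts ran from 15309037 to 16740516 in the SOX11 libraries and from 14641250 to 18706095 in the control libraries. The SOX11 transcript was at 17.9 to 20.2 CPM (counts relative to the scaled size of each library) in the SOX11 libraries and had 0 counts in all 4 control libraries. That was at least 404-fold above the floor of 3 counts over the control group. Across 15665 tested genes, 20.0% passed an adjusted p of 0.05 in edgeR's quasi-likelihood test, with 1615 genes higher and 1515 lower in SOX11 cells. With library totals in place of scaling factors, the split was 2044 higher and 1062 lower. Of the 5 epithelial markers examined, 3 fell in SOX11 cells, the keratins KRT8, KRT18 and KRT19. EPCAM and CDH1 were not called in edgeR. EPCAM was at a log2 fold change of 0.10 (adjusted p = 0.142), higher in SOX11 cells without overlap, and CDH1 was at -0.11 (adjusted p = 0.660). The 5 together summed to 1200 to 1206 CPM in SOX11 libraries and 1497 to 1761 CPM in control libraries. Most of that sum was KRT8 and KRT18, at means of 590 and 404 CPM in SOX11 libraries and 840 and 543 CPM in control libraries. Fibroblast markers summed to 5.84 to 7.71 CPM in SOX11 libraries and 3.33 to 5.43 CPM in control libraries. Of the 6, 1 (COL1A1) could be tested, and it rose. DCN, LUM, CD3E and HBB were not found by symbol among the counted genes and enter none of the marker sums. Blood markers summed to 1.18 to 1.60 CPM in SOX11 libraries and 1.30 to 2.11 CPM in control libraries, and endothelial markers to 0.182 to 0.532 CPM in SOX11 libraries and 0.379 to 0.832 CPM in control libraries. The part of these markers in the results on the proteasome was not tested.

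The constitutive proteasome genes were close to level between SOX11 and control cells. Of the 34 members that passed the filter on low counts, 5 fell, 0 rose and 29 were not called. The 5 that fell were the alpha subunits PSMA4 and PSMA3, the beta subunit PSMB2 and the regulatory subunits PSMD12 and PSMD8, and PSMA4 fell by 7.83%, PSMB2 fell by 7.50%, PSMA3 fell by 7.39%, PSMD12 fell by 6.65% and PSMD8 fell by 6.35%. The share that fell was 14.7%, against 9.67% of all tested genes, while 10.3% of all tested genes rose. At an unadjusted p below 0.05, 10 members (29.4%) were lower and 0 were higher in SOX11 cells, against 15.6% of all tested genes lower and 15.9% higher, 31.5% in all. DESeq2 and limma-voom likewise called 0 members higher. The count that fell was 1 (PSMA4) with library totals, 3 (PSMA4, PSMB2 and PSMC3) with the replicate block, 2 when either SOX11 replicate 3 or control replicate 3 was left out, and 3 when control replicate 4 was left out. In these bulk libraries, fewer expressing cells and less RNA per cell cannot be told apart.

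The sizes of the differences were small throughout. The median log2 fold change of the 34 members was -0.04, and 24 of them were below 0, against 49.7% of all tested genes below 0. None of the 34 members passed 0.25 on the log2 scale in either direction, whereas 3124 of the 15665 tested genes did. The 2 sets were not matched for counts, and fold changes of genes with few counts vary more. Of the 29 members not called, 24 had a control mean of at least 50 CPM. The tested genes include those near the minimum count of 10. The SOX11 and control libraries did not overlap in CPM for 9 members, all lower in SOX11 cells. That is 26.5% of the 34. Of all tested genes, 21.1% did not overlap in either direction and 10.4% were lower in SOX11 cells without overlap. PSMA8, the alpha subunit of the testis, was the 1 member not tested: it had 1 count in control replicate 4 and 0 in the other 7 libraries, which allows up to 0.0462 CPM over the SOX11 libraries.

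**Figure D1:**
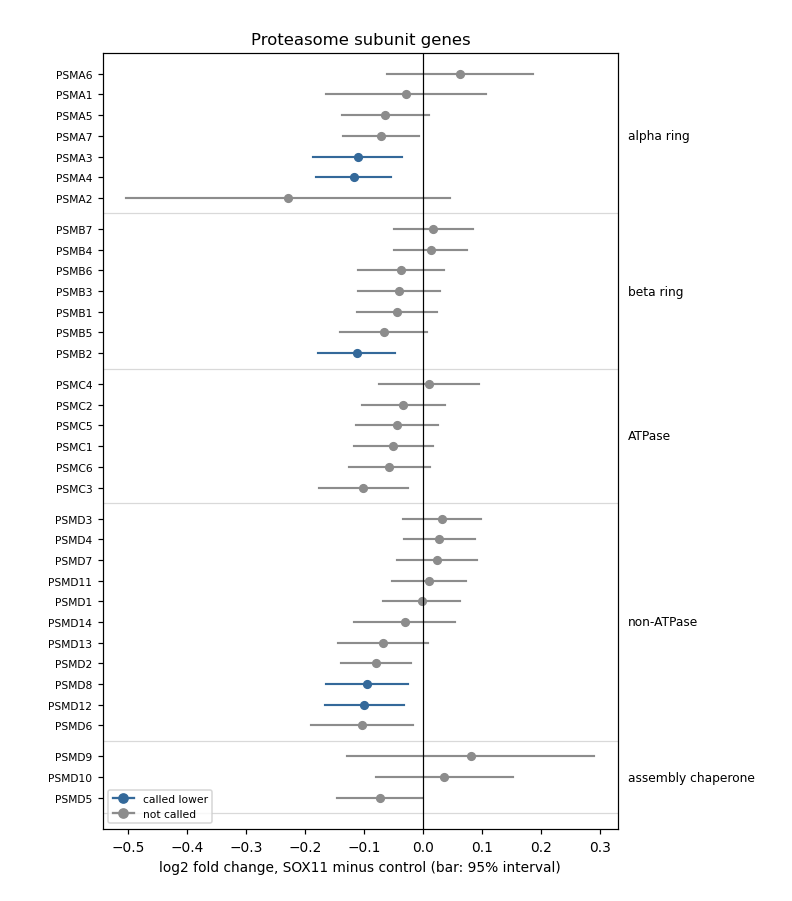
Log2 fold changes of the 34 tested members (SOX11 minus control, x axis) with 95% confidence intervals, grouped by place in the particle; colour marks members called at an adjusted p below 0.05 in edgeR. The points lie between -0.23 (PSMA2) and 0.08 (PSMD9), and the 5 called members lie left of 0.

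The 3 catalytic subunits did not pass the test. PSMB5, which cuts after hydrophobic residues and is the main target of bortezomib (ENSG00000100804, chromosome 14, 23016543 to 23035230, minus strand), was at 145.6, 139.1, 145.5 and 156.5 CPM in the SOX11 libraries and at 149.3, 155.7, 155.4 and 153.6 CPM in the control libraries. SOX11 replicate 4 was the highest of all 8 libraries, and the groups overlapped. The log2 fold change was -0.07 (95% confidence interval -0.14 to 0.01, adjusted p = 0.212).

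PSMB6, which cuts after acidic residues (ENSG00000142507, chromosome 17, 4796144 to 4798503, plus strand), was at 186.6, 191.8, 193.9 and 205.3 CPM in the SOX11 libraries and at 191.5, 199.8, 195.6 and 210.8 CPM in the control libraries. The ranges of both groups coincided over most of their width. Its log2 fold change was -0.04 (interval -0.11 to 0.04, adjusted p = 0.529). PSMB7, which cuts after basic residues (ENSG00000136930, chromosome 9, 124353466 to 124415444, minus strand), was at 196.1, 189.6, 196.1 and 204.3 CPM in the SOX11 libraries and at 190.5, 195.9, 189.9 and 200.0 CPM in the control libraries. The libraries of both groups were interleaved, at a log2 fold change of 0.02 (interval -0.05 to 0.09, adjusted p = 0.766).

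Among the 14 tested core genes, the median log2 fold change was -0.05, and 3 fell, 21.4%, against 9.67% of all tested genes. PSMA4, an alpha ring subunit (ENSG00000041357, chromosome 15, 78540405 to 78552419, plus strand), had the smallest adjusted p of all members. It was at 213.5, 214.7, 215.2 and 218.2 CPM in the SOX11 libraries and at 237.0, 236.8, 235.4 and 225.3 CPM in the control libraries. All 4 SOX11 libraries lay below the lowest control library, replicate 4, which stood nearest to them. The means were 215.4 ± 2.02 CPM in SOX11 cells and 233.6 ± 5.59 CPM in control cells (SD, n = 4 each), a log2 fold change of -0.12 (SE 0.0310, adjusted p = 0.00632).

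PSMB2, a beta ring subunit without an active site of its own (ENSG00000126067, chromosome 1, 35599544 to 35641844, minus strand), was at 182.3, 181.6, 184.5 and 191.4 CPM in the SOX11 libraries and at 197.0, 197.7, 199.8 and 205.2 CPM in the control libraries. The groups did not overlap, and replicate 4 was the highest in both. Its log2 fold change was -0.11 (SE 0.0320, adjusted p = 0.0115), and with library totals in place of scaling factors the adjusted p was 0.0523.

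PSMA3, another alpha ring subunit (ENSG00000100567, chromosome 14, 58244831 to 58272012, plus strand), was at 148.9, 161.2, 144.9 and 154.3 CPM in the SOX11 libraries and at 171.4, 158.6, 167.3 and 160.8 CPM in the control libraries. The groups overlapped, since SOX11 replicate 2 lay above 2 of the control libraries. Its log2 fold change of -0.11 (SE 0.0368, adjusted p = 0.0310) passed the threshold. Leaving out 1 library ended the call in 4 cases: the adjusted p was 0.0810 without SOX11 replicate 1, 0.140 without SOX11 replicate 3, 0.0997 without the first control library and 0.0888 without the third. It was 0.118 with library totals and 0.0577 with the replicate number as a block.

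The other 11 tested core genes were not called. In the alpha ring, PSMA7 was at a log2 fold change of -0.07, PSMA5 at -0.06, PSMA1 at -0.03 and PSMA6 at 0.06. PSMA2 had the widest interval, -0.50 to 0.05 around -0.23, at 3.78 to 4.62 CPM in SOX11 libraries and 4.27 to 5.75 CPM in control libraries. Besides the catalytic subunits, the structural beta subunits PSMB1 and PSMB3 were both at -0.04, and PSMB4, which helps hold the core together, was at 0.01.

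**Figure D2:**
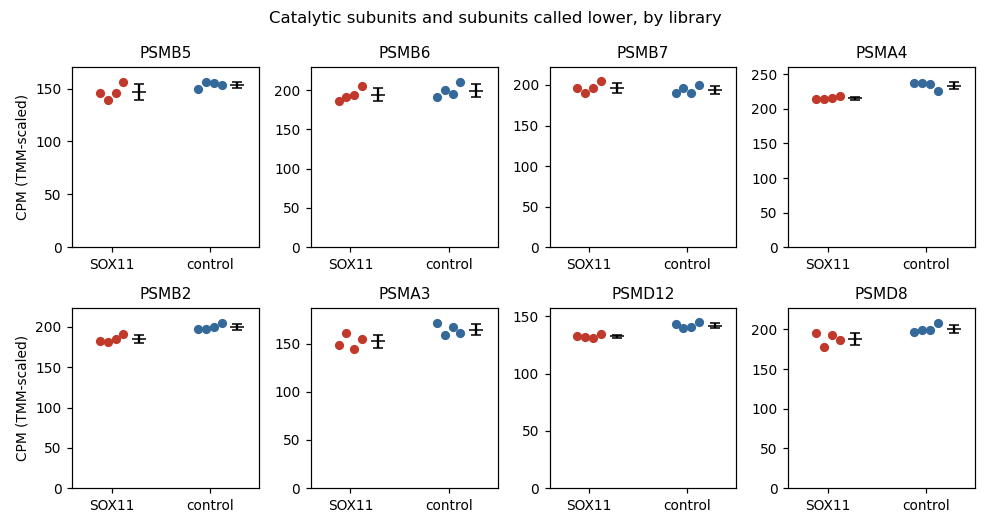
TMM-scaled CPM in every library for the 3 catalytic subunits and the 5 members called lower, with SOX11 libraries left of control libraries in each panel and the mean ± SD beside the points. The groups are separate for PSMA4, PSMB2, PSMD12 and PSMD8 and overlap for PSMA3 and the catalytic subunits.

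Among the 20 regulatory genes, the median log2 fold change was -0.04, and 2 fell, 10.0%, close to the 9.67% of all tested genes. Both are non-ATPase subunits of the lid. PSMD12, a scaffold subunit of the lid (ENSG00000197170, chromosome 17, 67337916 to 67366627, minus strand), was at 132.7, 132.3, 130.8 and 134.3 CPM in the SOX11 libraries and at 142.9, 139.9, 140.5 and 144.6 CPM in the control libraries. Its libraries were tight in both groups and did not overlap. The log2 fold change was -0.10 (SE 0.0330, adjusted p = 0.0311). The adjusted p was 0.0892 when SOX11 replicate 3 was left out, and 0.0549, 0.0525 and 0.0923 when control replicates 1, 3 and 4 were left out in turn. It was 0.128 with library totals and 0.0524 with the replicate block.

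PSMD8, also a lid subunit (ENSG00000099341, chromosome 19, 38374536 to 38383824, plus strand), was at 195.2, 178.3, 192.3 and 186.1 CPM in the SOX11 libraries and at 196.1, 199.3, 199.4 and 208.1 CPM in the control libraries. The highest SOX11 library and the lowest control library were nearly level. Its log2 fold change was -0.09 (SE 0.0341, adjusted p = 0.0476), the weakest of the 5 calls. The adjusted p was 0.153, 0.0565 and 0.0883 when SOX11 replicates 2, 3 and 4 were left out in turn, and 0.0815, 0.0828 and 0.166 for control replicates 2, 3 and 4. The call also ended with upper quartile scaling (0.0631), library totals (0.173), DESeq2 (0.0582) and the replicate block (0.0670).

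Of the 6 ATPases, 0 were called in edgeR, and 1 was below an unadjusted p of 0.05. That was PSMC3, at 157.3 ± 8.53 CPM in SOX11 cells and 168.7 ± 4.68 CPM in control cells (SD, n = 4 each), with an adjusted p of 0.0517. Its call appeared with RLE scaling (0.0489), without a filter (0.0344), with the replicate block (0.0480) and without SOX11 replicate 1 (0.0481) or 4 (0.0211). The other ATPases were at log2 fold changes of -0.06 (PSMC6), -0.05 (PSMC1), -0.04 (PSMC5), -0.03 (PSMC2) and 0.01 (PSMC4).

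The remaining 9 non-ATPase subunits were not called. PSMD2, a large base subunit and the member with the most counts, was at 731.6 ± 15.2 CPM in SOX11 cells and 772.8 ± 19.8 CPM in control cells (SD, n = 4 each), without overlap. Its adjusted p was 0.0533 in edgeR, 0.0290 in DESeq2 and 0.0335 in limma-voom, and it was 0.0315 without control replicate 1 and 0.0343 without SOX11 replicate 4. PSMD6 was at a log2 fold change of -0.10 and also did not overlap (adjusted p = 0.0828). PSMD13 was at -0.07, PSMD14, the lid's deubiquitinase, at -0.03, PSMD1 at -0.00, PSMD11 at 0.01, PSMD7, its partner in the lid, at 0.02, and PSMD3 and the ubiquitin receptor PSMD4 both at 0.03. The assembly chaperones PSMD5, PSMD10 and PSMD9 were at -0.07, 0.04 and 0.08, and 0 of these 3 were called in edgeR, 1 of them (PSMD5) being below an unadjusted p of 0.05.

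For the 29 members not called, the 95% intervals of the log2 fold change ran from -0.50 to 0.29. For the 24 of them with a control mean of at least 50 CPM they ran from -0.19 to 0.10, so that changes outside -12.4% to 7.10% lay beyond these intervals. The replicates set this limit: the median coefficient of variation of a member was 3.16% among SOX11 libraries and 2.80% among control libraries.

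In TMM-scaled CPM, the summed levels showed the same small offset. The core genes summed to 2247.6 ± 48.8 CPM in SOX11 libraries and 2324.3 ± 13.6 CPM in control libraries, and the regulatory genes to 3841.5 ± 75.0 CPM in SOX11 libraries and 3941.2 ± 50.7 CPM in control libraries (SD, n = 4 each). Both sums overlapped between the groups. SOX11 replicate 4 was the highest SOX11 library for both and SOX11 replicate 2 the lowest. The offset depended on the scaling factors. Without them, the core genes made up 0.227% ± 0.00404 of counts in SOX11 libraries and 0.230% ± 0.000708 in control libraries. The regulatory genes made up 0.387% ± 0.00626 in SOX11 libraries and 0.390% ± 0.00416 in control libraries. Both gaps were smaller than the SD of the SOX11 libraries. The ratio of core to regulatory sums was 0.585 ± 0.00549 in SOX11 libraries and 0.590 ± 0.00609 in control libraries, a smaller gap than the spread within either group.

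Promoters are shown for 3 of the members that fell without overlap between the groups, because NFE2L1 with a small MAF partner is known to bind the antioxidant response element, whose core was searched as TGACNNNGC, and many subunit promoters carry CCAAT boxes. The sequences are from RefSeq (GRCh38.p14) and run from 250 bases before to 50 bases after the transcript start on the gene's own strand. Capitals mark TGACNNNGC and CCAAT on either strand, which do not overlap each other in these sequences.
PSMA4, chr15:78540536-78540835, plus strand: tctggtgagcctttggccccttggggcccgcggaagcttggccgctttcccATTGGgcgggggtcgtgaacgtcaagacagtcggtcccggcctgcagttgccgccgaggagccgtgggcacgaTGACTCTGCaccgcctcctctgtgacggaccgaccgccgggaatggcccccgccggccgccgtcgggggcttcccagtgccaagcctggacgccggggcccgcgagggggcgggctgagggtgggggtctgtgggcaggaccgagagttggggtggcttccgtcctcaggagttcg
PSMB2, chr1:35641477-35641776, minus strand: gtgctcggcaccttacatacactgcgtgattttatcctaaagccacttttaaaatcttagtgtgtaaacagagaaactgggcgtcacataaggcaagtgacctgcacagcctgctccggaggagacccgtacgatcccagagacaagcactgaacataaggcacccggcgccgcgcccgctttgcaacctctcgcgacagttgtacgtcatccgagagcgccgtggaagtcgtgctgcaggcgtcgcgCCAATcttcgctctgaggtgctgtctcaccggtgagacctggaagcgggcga
PSMD12, chr17:67366528-67366827, minus strand: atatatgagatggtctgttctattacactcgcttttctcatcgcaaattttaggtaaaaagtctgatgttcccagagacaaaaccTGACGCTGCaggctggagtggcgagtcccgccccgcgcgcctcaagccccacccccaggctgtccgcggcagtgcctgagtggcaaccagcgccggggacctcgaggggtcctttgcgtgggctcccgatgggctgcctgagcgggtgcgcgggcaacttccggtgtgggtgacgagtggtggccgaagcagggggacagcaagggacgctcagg
The PSMA4 promoter shown held the element's core 126 bases before the start and a CCAAT box, read on the other strand, 199 bases before it. The table holds 3 PSMA4 promoters, and the other 2, which start at 78540155 and 78540194, hold neither motif. The annotated start of the PSMA4 gene, 78540405, lies inside both of these windows and before the window shown. The PSMB2 promoter held a CCAAT box that begins 2 bases before the start, and the PSMD12 promoter held the element's core 165 bases before the start.

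Promoters were found for 30 of the 35 members, 36 promoters in all. TGACNNNGC was in 25.0% of these 36, against 13.3% of all 35116 promoters in the table. The 9 members with it in at least 1 promoter were PSMA4, PSMB3, PSMC4, PSMC5, PSMD1, PSMD3, PSMD5, PSMD9 and PSMD12, of which PSMA4 and PSMD12 fell and 7 were not called. CCAAT was in 44.4% of member promoters and 34.6% of all promoters. The GC box, GGGCGG, was in 66.7% of member promoters and 45.0% of all promoters. In the PSMA4 promoter shown, a GC box that begins 196 bases before the start overlaps the CCAAT box. By gene, TGACNNNGC was in 30.0% of the 30 members and in 19.6% of the tested genes with a promoter in the table. CCAAT was in 53.3% of these members and in 42.7% of those tested genes. The GC box was in 66.7% of these members and in 77.3% of those tested genes. A match describes letters in the window and does not show binding.

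Levels between subunits were compared as CPM per kilobase of annotated exon, on the GENCODE 29 models of the protein-coding transcripts. The exons of a gene's transcripts were merged, so the length can exceed that of the transcript expressed, and differences between subunits depend on it. In SOX11 cells PSMB2 (4843 bases) was at 184.9 CPM and PSMB7 (980 bases) at 196.5 CPM. Per kilobase they were at 38.2 and 200.6. Which transcripts were expressed was not tested. On this scale PSMB4 was the highest member, at 469.0 in SOX11 cells and 464.8 in control cells. The next core genes were PSMB3 at 225 in SOX11 cells and 232 in control cells and PSMB6 at 223 in SOX11 cells and 229 in control cells. The highest regulatory genes were PSMD4, at 230 in SOX11 cells and 226 in control cells, PSMD2, at 206 in SOX11 cells and 217 in control cells, and PSMC5, at 130 in SOX11 cells and 134 in control cells. The order was nearly shared by both groups: 25 of 34 members held the same rank among the 34, and none moved by more than 2 places.

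The median level per kilobase over the beta ring was 200.6 in SOX11 cells and 198.0 in control cells, and over the 7 tested alpha genes 23.7 in SOX11 cells and 24.8 in control cells. Over the 4 alpha genes that share no exon with another gene on the same strand, it was 94.7 in SOX11 cells and 100.3 in control cells. The 6 ATPases, which form 1 ring in equal numbers, spanned 2.83-fold in SOX11 cells and 2.81-fold in control cells from lowest to highest. This span depends on the exon lengths. PSMC1, over 4448 bases, was lowest per kilobase, at 204.0 CPM in SOX11 cells and 211.2 CPM in control cells. In CPM, PSMC6 was lowest, at 141.4 in SOX11 cells and 147.1 in control cells. The lowest core genes were PSMA2 (2.86 in SOX11 cells, 3.37 in control cells), PSMA1 (8.73 in SOX11 cells, 8.91 in control cells) and PSMA6 (16.6 in SOX11 cells, 15.9 in control cells). The lowest regulatory genes were PSMD9 (2.72 in SOX11 cells, 2.58 in control cells), PSMD10 (20.8 in SOX11 cells, 20.3 in control cells) and PSMD12 (30.1 in SOX11 cells, 32.2 in control cells).

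The 4 lowest members, PSMD9, PSMA2, PSMA1 and PSMA6, were the 4 whose exons are shared with another annotated gene on the same strand, over 43.8%, 52.5%, 35.7% and 63.9% of their bases in that order. Their median level was 5.79 in SOX11 cells and 6.14 in control cells per kilobase, against 76.6 in SOX11 cells and 76.4 in control cells for the 30 members without a shared exon. A read in a shared exon can be left out or assigned to either gene, depending on the counting rule, which is not given in the sources used here, and its effect on these levels was not tested. Levels and fold changes of these 4 are therefore uncertain. CFAP251, which shares exons with PSMD9, had 687 to 721 counts in SOX11 libraries and 738 to 959 in control libraries. PSMD9 itself had 112 to 133 in SOX11 libraries and 103 to 127 in control libraries. The gene sharing exons with PSMA6 had 4 to 15 in SOX11 libraries and 4 to 9 in control libraries. The gene sharing exons with PSMA1 was not in the count table. All 5 members that fell were among the 30 without a shared exon. Exons overlap a gene on the opposite strand for PSMA2 (MRPL32), PSMC1 (NRDE2), PSMC5 (FTSJ3) and PSMD13 (SIRT3), among others, and for none of the 5 that fell. The antisense gene PSMA3-AS1 overlaps the body of PSMA3, but not its exons. Reads of pseudogenes bearing a member's name came to 9.33% of the member's own for PSMA6, 2.63% for PSMC1 and 1.97% for PSMA1, and to less than 1% for the 7 other members with such rows.

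**Figure D3:**
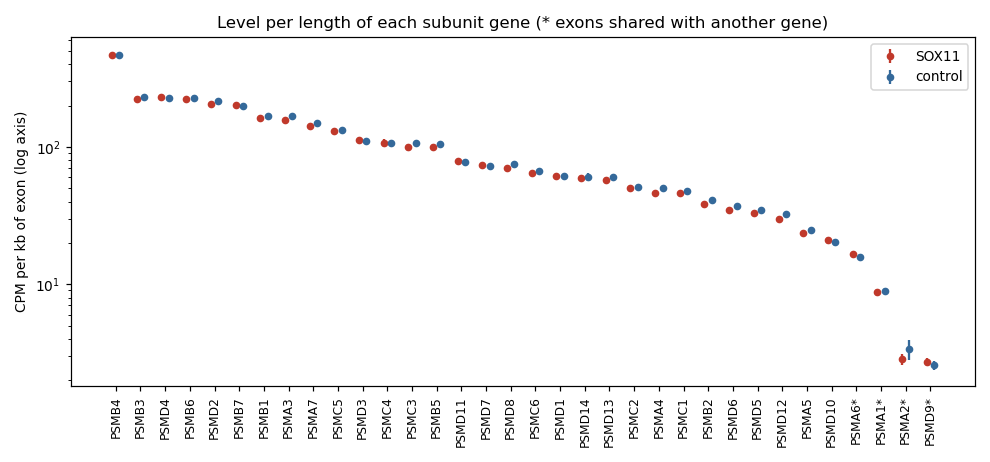
CPM per kilobase of exon for each of the 34 tested members on a log axis, ordered by level, with SOX11 cells left of control cells in each pair; points are means and bars the SD over 4 libraries. PSMB4 is highest, and the 4 lowest, marked with an asterisk, are the members that share exons with another gene on the same strand.

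The excluded immunoproteasome subunit PSMB8, which replaces PSMB5 after interferon, was at 11.95 ± 0.925 CPM in SOX11 cells and 16.95 ± 1.25 CPM in control cells (SD, n = 4 each), a log2 fold change of -0.50 (adjusted p = 2.25e-05), and overlaps an antisense gene, PSMB8-AS1. Per kilobase it stood at 7.72% ± 0.737 of PSMB5 in SOX11 libraries and 10.5% ± 0.951 in control libraries (SD, n = 4 each), without overlap. PSMB9 and PSMB10 were not called.

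**Figure D4:**
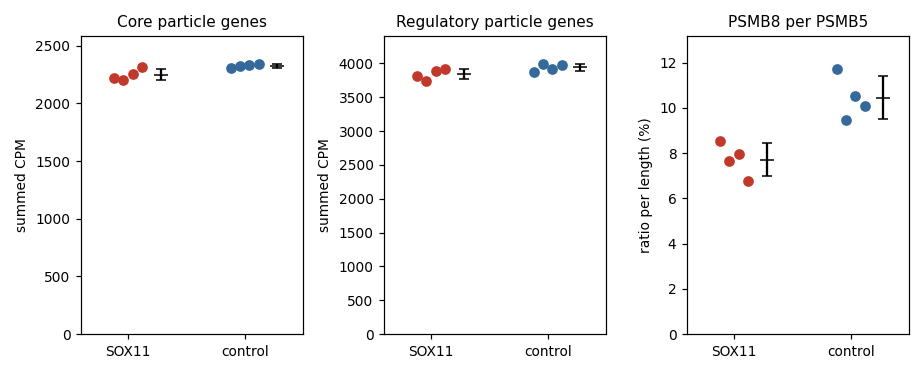
Summed CPM of the core genes and of the regulatory genes, and the level of PSMB8 as a percent of PSMB5 per kilobase, in each library, SOX11 left of control, with the mean ± SD beside the points. The highest SOX11 library reaches the control range in both sums, while the PSMB8 percentages lie apart.

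The wider pathway was read from a list of 43 genes that assemble, activate, feed or transcribe the proteasome, all of them tested. Of these, 12 fell (27.9%), 3 rose (6.98%) and 28 were not called, against 9.67% of all tested genes that fell and 10.3% that rose. The list was chosen with earlier results of these data known, so these shares do not measure an excess over all genes. The median log2 fold change of the list was -0.05. With library totals 5 genes of the list rose, and 7 fell when control replicate 4 was left out.

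Activators and the inhibitor gave the highest share of calls, with 4 of 5 lower. PSME1, which with PSME2 forms an alternative cap induced by interferon, was at 42.51, 39.75, 39.78 and 42.13 CPM in the SOX11 libraries and at 52.82, 47.33, 49.52 and 51.77 CPM in the control libraries. All SOX11 libraries lay below all control libraries, and PSME1 fell by 18.4% (log2 fold change -0.29, adjusted p = 4.32e-05). PSME2 fell to 39.9 ± 1.94 CPM in SOX11 cells, against 45.1 ± 0.711 CPM in control cells (SD, n = 4 each, adjusted p = 0.00985). Counting on the other strand may matter, since PSME1 overlaps EMC9 and PSME2 overlaps RNF31, as PSME3 does BECN1 and PSMG2 does CEP76. PSMF1, an inhibitor of the core, fell by 0.15 on the log2 scale (adjusted p = 0.00248). PSME3, the nuclear cap, fell by 0.10 (adjusted p = 0.0297), and overlapped between groups. Its adjusted p was 0.0955, 0.0679 and 0.0595 when SOX11 replicates 1, 2 and 3 were left out in turn, 0.0641, 0.0532 and 0.140 for control replicates 2, 3 and 4, and 0.106 with library totals. The large activator PSME4 was at 0.00.

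Of 6 assembly genes, 3 fell. PSMG3, PSMG4 and PAAF1 were not called in edgeR, at log2 fold changes of -0.04 (adjusted p = 0.658), -0.03 (adjusted p = 0.787) and -0.03 (adjusted p = 0.871). PSMG1 and PSMG2, partners in a chaperone that builds the alpha ring, both fell by 0.16 on the log2 scale (adjusted p = 0.0121 and 0.00787). POMP, the chaperone that matures the core, fell by 0.13 (adjusted p = 0.0190). Its adjusted p was 0.0769 without control replicate 3, 0.0611 without SOX11 replicate 1 and 0.0705 with library totals. That of PSMG1 was 0.0647 without control replicate 4 and 0.0565 without SOX11 replicate 1. Among 7 genes whose products bind the proteasome, the ubiquitin ligase UBE3C fell by 0.15 (adjusted p = 0.000902) and the deubiquitinase UCHL5 by 0.12 (adjusted p = 0.0383), while the deubiquitinase USP14 was at 0.06 (adjusted p = 0.195). The adjusted p of UCHL5 was 0.154 and 0.0531 when SOX11 replicates 1 and 3 were left out in turn, and 0.0715, 0.0982 and 0.0844 for control replicates 2, 3 and 4. Its call also ended with upper quartile scaling (0.0530), library totals (0.115) and DESeq2 (0.0739).

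Among 6 shuttle factors, which carry ubiquitinated proteins to the proteasome, UBQLN4 rose to 224.5 ± 3.87 CPM in SOX11 cells, against 194.7 ± 6.05 CPM in control cells (SD, n = 4 each, adjusted p = 1.79e-05). Of the 6 genes of ubiquitin itself and its activation, 1 fell: RPS27A, which encodes ubiquitin fused to a ribosomal protein, by 0.23 (adjusted p = 1.53e-06). VCP, the segregase that extracts substrates, was at 0.00, and 0 of 4 genes of its group were called in edgeR, with 0 below an unadjusted p of 0.05.

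Of 7 genes for transcription of the subunits and for processing of their activator, 2 rose and 1 fell. MAFK, a small MAF partner of NFE2L1, was at 105.8, 100.4, 101.0 and 98.46 CPM in the SOX11 libraries and at 75.18, 83.90, 80.42 and 87.05 CPM in the control libraries. The groups were well apart, at a log2 fold change of 0.31 (adjusted p = 1.61e-06). NFE2L1 was at 343.5, 320.7, 336.0 and 327.5 CPM in the SOX11 libraries and at 316.4, 311.0, 302.6 and 301.2 CPM in the control libraries, again without overlap. Its log2 fold change was 0.11 (adjusted p = 0.0121), and the adjusted p was 0.0529 without control replicate 3, 0.0517 without control replicate 4 and 0.0531 without SOX11 replicate 1. NGLY1, the glycanase that processes NFE2L1 protein, fell by 0.15 (adjusted p = 0.0339), with adjusted p-values of 0.148 and 0.0646 when SOX11 replicates 3 and 4 were left out in turn, and of 0.0910, 0.0620 and 0.0534 for control replicates 1, 3 and 4. It was also lost with library totals (0.0956), DESeq2 (0.0806) and the replicate block (0.0511). The other small MAF partners were not called, MAFF at -0.18 (adjusted p = 0.198) and MAFG at -0.01 (adjusted p = 0.928).

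The regulatory subunits ADRM1 and SEM1, whose symbols fall outside the rule, were at log2 fold changes of -0.12 (adjusted p = 0.237) and -0.06 (adjusted p = 0.334) and were not called.

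**Figure D5:**
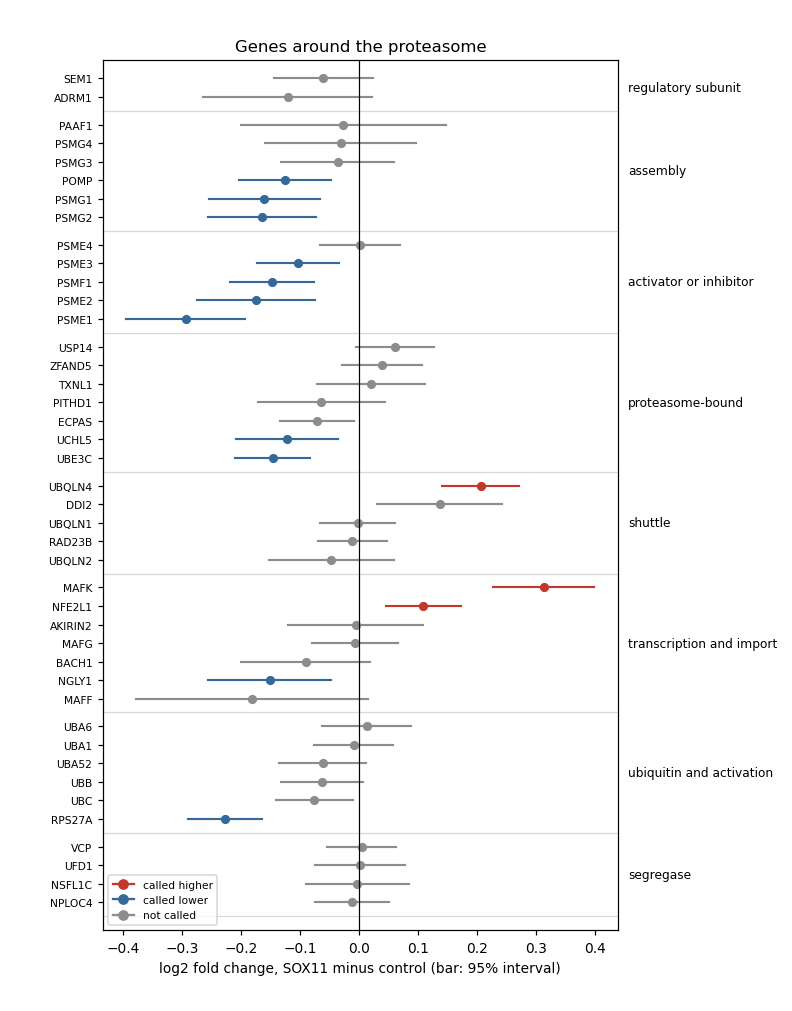
Log2 fold changes (SOX11 minus control, x axis) with 95% confidence intervals for 42 of the 43 pathway genes, grouped by role, with colour marking genes called higher or lower at an adjusted p below 0.05 in edgeR. MAFK (0.31), UBQLN4 (0.21) and NFE2L1 (0.11) lie to the right, and PSME1 (-0.29) lies farthest left among the called genes.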

How the data were processed

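Raw counts by Ensembl identifier for 8 libraries were deposited by the authors in a single table, from polyadenylated RNA with a stranded kit, per the labels' protocols. Per the submitters' processing notes, cutadapt, FastQC, STAR 2.7.0e and GRCh38 were used; read counter, strand setting and annotation: not given in the sources used here. Symbols matched 32053 of 32066 identifiers, and exons and coordinates are from GENCODE 29 (30159 identifiers matched). From the deposited counts, genes were filtered (filterByExpr, minimum count 10), scaled by TMM and tested in edgeR 4.0.16 (R 4.3.3; robust quasi-likelihood fit, group the only term, Benjamini-Hochberg adjustment over 15665 genes, calls at 0.05). CPM are TMM-scaled. The scripts were tested on simulated data. Alternatives were RLE, upper quartile and no scaling factors, no and stricter filters (1 CPM in 4 libraries), DESeq2 1.42.0, limma-voom (limma 3.58.1), a replicate block and leaving out each library. Values in every library are given for the catalytic subunits and called members; called pathway genes are named, except 1 that is not reported here. The members and lists were chosen with earlier results of these data known. Floors for a count of 0 (3 counts) cover counting error only. Libraries of a group differed by more than sampling noise, so none was merged.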

Additional observations from a re-analysis of the deposited data

Results flagged for a closer look

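For 6 of the 112 sets of 4 libraries checked, 1 library stood far from the other 3 in CPM; chance alone flags about 1 in 20 such sets. PSMA4 was at 225.3 CPM in control replicate 4, below the 235.4 to 237.0 CPM of the other control libraries. PSMC3 was at 175.7 CPM in control replicate 4, above 166.0 to 166.9 CPM in the others. PSMC4 was at 159.3 CPM in control replicate 1, below 172.8 to 174.2 CPM in the others. PSME2 was at 42.8 CPM in SOX11 replicate 3, above 38.6 to 39.3 CPM in the other SOX11 libraries. UCHL5 was at 64.4 CPM in SOX11 replicate 1, below 70.9 to 71.9 CPM in the others. UBE3C was at 215.4 CPM in control replicate 2, above 212.1 to 212.6 CPM in the others.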

How the results depend on the processing

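In all 16 alternatives 0 members were called higher, and PSMA4 was called lower in each. Against 5 members called lower, 1 was called with library totals, 3 with the replicate block and 2 to 6 with 1 library left out. The 2 came without control replicate 3 or SOX11 replicate 3. Of the core genes, 3 in the reported fit, 1 was called with library totals and 2 to 3 with a library left out. Of the regulatory genes, 2 in the reported fit, 0 were called with library totals, 1 with upper quartile scaling, 1 with the replicate block and 0 to 3 with a library left out. Pathway genes called higher, 3 in the reported fit, were 5 with library totals and 2 to 4 with a library left out; those called lower, 12 in the reported fit, were 7 (without control replicate 4) to 13. The cause was not tested. Library totals moved the median log2 fold change of all genes to 0.03, and the members' median minus that of all genes was -0.04 there, as in the reported fit. Signs turned only for members near 0 that were never called. PSMD1 was at 0.0051 with upper quartile scaling and 0.026 with library totals. With a library left out, the ranges were -0.071 to 0.0034 for PSMA1, -0.0061 to 0.028 for PSMB4, -0.0039 to 0.035 for PSMB7, -0.021 to 0.055 for PSMC4, -0.019 to 0.012 for PSMD1, -0.0098 to 0.019 for PSMD11 and -0.062 to 0.012 for PSMD14. Deviations of same-numbered libraries correlated at -0.07 to 0.11, and those of differently numbered libraries at -0.09 to 0.08. So few libraries cannot settle whether the replicate numbers pair the groups. The replicate block gave 1506 genes higher and 1393 lower. For well-counted members that were not called, the intervals reached -0.19 and 0.10, which limits what 4 libraries a group can resolve.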

Other observations

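PSMC3IP, a recombination factor set aside by its full symbol, was at 32.75 ± 1.65 CPM in SOX11 cells and 35.34 ± 0.787 CPM in control cells (SD, n = 4 each), a log2 fold change of -0.11 that was not called (edgeR adjusted p = 0.150). PSMA3-AS1, an antisense RNA whose gene body overlaps that of PSMA3, was at 62.1 ± 5.09 CPM in SOX11 cells and 56.7 ± 2.80 CPM in control cells (SD, n = 4 each), a log2 fold change of 0.13 that was not called (edgeR adjusted p = 0.0651). The readthrough gene that shares exons with PSMA2 (ENSG00000256646) had 2, 2, 3 and 1 counts in the SOX11 libraries and 0, 1, 0 and 0 counts in the control libraries.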
